A study of Mus musculus with 2 samples.

Results

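The 4 ligands and 2 receptors of the platelet-derived growth factor (PDGF) family were followed across the cell types of the embryonic mouse limb. The members were the rows whose gene symbol was Pdgfa, Pdgfb, Pdgfc, Pdgfd, Pdgfra or Pdgfrb, and all 6 were found among the 32285 genes of the deposited matrices. Limb skeletal muscles of wild-type C57Bl/6 embryos were dissociated mechanically and with trypsin, and forelimb and hindlimb cells went into the same library. There was 1 droplet-based 3′ single-cell RNA library at the embryonic stage E12.5 and 1 at E15.5. No treatment or genetic change separated them, and the number of embryos behind each library was not given in the sources used here.

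PDGF ligands act as dimers on 2 receptor tyrosine kinases at the surface of neighbouring cells. The A and C chains act mainly through the alpha receptor, which marks mesenchymal and connective tissue cells. The B chain binds both receptors, and the D chain acts mainly through the beta receptor. Endothelial Pdgfb and Pdgfrb on pericytes and smooth muscle cells are the textbook pair by which vessels gather their mural coat. In muscle, Pdgfra marks the fibro-adipogenic interstitial cells that lie between the fibres.

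The E12.5 library held 12941 cell barcodes and 34907675 unique molecular identifiers (UMIs, each a counted transcript molecule), and the E15.5 library held 5780 barcodes and 46966083 UMIs. After filtering, 11001 cells with a median of 2323 UMIs remained at E12.5 and 3916 cells with a median of 9340 UMIs at E15.5. The libraries shared 17 barcodes. Each library was clustered on its own without using the 6 genes, and clusters were named from marker lists. Cells named as muscle lineage were 5.59% of the kept E12.5 cells and 10.2% of the kept E15.5 cells. The connective tissue class, 75.5% and 53.8% of kept cells, took the clusters with no closer name in which at least 3 of 11 connective tissue markers were at least 2-fold over the non-mesenchymal clusters. The markers past that fold numbered 3 to 9 in its 13 clusters at E12.5 and 10 to 11 in its 8 clusters at E15.5. Set against all other clusters, 6 of the 13 (4195 of 8309 cells) had no such marker, so at E12.5 it is a broad mesenchymal class. In the main clustering, tenocyte, mural, mast, epithelial and melanocyte classes were named only at E15.5, and 785 and 308 cells stayed unnamed. Other settings did name E12.5 tenocytes, with 567 cells at clustering resolution 0.5 and 487 at resolution 2. There were 496 with the 6 genes and their pathway genes used in clustering. With at least 1000 genes per cell there were 272, and without the gene and mitochondrial filters 546. None were named with both libraries clustered together or with no doublets removed. The depth of the 2 libraries differed, and with 1 library per age no difference between the ages could be tested. Levels are given as counts per 1000000 UMIs of the class (CPM) with a 95% interval that covers counting error only.

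Among the 6 genes, Pdgfra (chromosome 5, 75152292 to 75198215, plus strand, GRCm38) and Pdgfc (chromosome 3, 81036416 to 81214040, plus strand) were both lower at E15.5 in the connective tissue class, as described below. The 250 bases before the RefSeq start of each (build GRCm38.p6) are shown because both were lower there. In chondrocytes their ratios had opposite signs. The promoter table matched 4 of the 6 genes, all but Pdgfb and Pdgfrb. They cover chr5:75152001-75152250 and chr3:81036166-81036415 on the plus strand, 5′ to 3′, with CG dinucleotides in capitals.
Pdgfra: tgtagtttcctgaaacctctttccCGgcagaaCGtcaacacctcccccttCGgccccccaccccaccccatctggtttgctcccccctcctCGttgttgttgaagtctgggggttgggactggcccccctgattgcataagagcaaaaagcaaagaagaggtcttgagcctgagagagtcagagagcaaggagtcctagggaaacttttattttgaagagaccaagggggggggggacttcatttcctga
Pdgfc: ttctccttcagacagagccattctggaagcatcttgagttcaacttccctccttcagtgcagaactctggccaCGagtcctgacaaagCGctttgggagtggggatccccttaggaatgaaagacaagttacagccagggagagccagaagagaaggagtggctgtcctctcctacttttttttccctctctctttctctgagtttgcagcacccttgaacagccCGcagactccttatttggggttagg
The Pdgfra window held 4 CG dinucleotides and the Pdgfc window 3, against a median of 6 over the 32851 promoter windows of the same length. Neither window held a GC box (GGGCGG, either strand), which was present in 32.7% of all windows, nor a TATA box (TATAAA, either strand), present in 12.4%. A CCAAT box (CCAAT, either strand), present in 33.8%, was not found in them either. The 2 Pdgfa windows in the same set differed from these, with 19 and 28 CG dinucleotides and 1 and 2 GC boxes. The Pdgfd window, whose gene was higher in connective tissue at E15.5, held 3 CG dinucleotides, as the Pdgfc window did. Like the 2 shown it held no GC or CCAAT box, and it held 1 TATA box.

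Pdgfa, the A chain (chromosome 5, 138976014 to 138997370, minus strand, GRCm38), came mostly from the muscle lineage at both ages. At E12.5 its level in muscle cells was 304 CPM (95% interval 283 to 326, 777 UMIs), and these cells held 67.9% of all its UMIs while contributing 9.02% of the library's UMIs. At E15.5 the level was 276 CPM (263 to 289, 1706 UMIs), and muscle cells held 63.1% of its UMIs. Muscle cells stood 21.3-fold over the rest of the library at E12.5 and 9.61-fold at E15.5. Connective tissue cells had 13.4 CPM and 19.2 CPM, which was 4.39% and 6.96% of the muscle level. Of the 13 muscle markers detected at E12.5 and the 12 compared at E15.5, 1 at each age lay higher than that in connective tissue relative to muscle. At E15.5 Pdgfa was also counted in Schwann cells at 162 CPM (138 to 190), mural cells at 137 CPM (115 to 161) and epithelial cells at 136 CPM (103 to 176), 3 levels whose intervals overlapped. The shares of cells with a Pdgfa UMI differed more, at 73.2%, 57.1% and 28.0% in that order. These intervals do not cover the spread between cells. The mural value was 83.6 CPM at clustering resolution 0.5. The Schwann and mural levels were 58.9% and 49.5% of the muscle level, above all 12 muscle markers measured the same way. The 26 Schwann cells at E12.5 held only 2 Pdgfa UMIs. No Pdgfa UMI was found in the 70 mast cells, which allows up to 2.03 CPM. The antisense gene 6330403L08Rik overlaps Pdgfa and had 65 and 80 UMIs in the deposited cells, against 1333 and 3050 for Pdgfa.

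**Figure D1:**
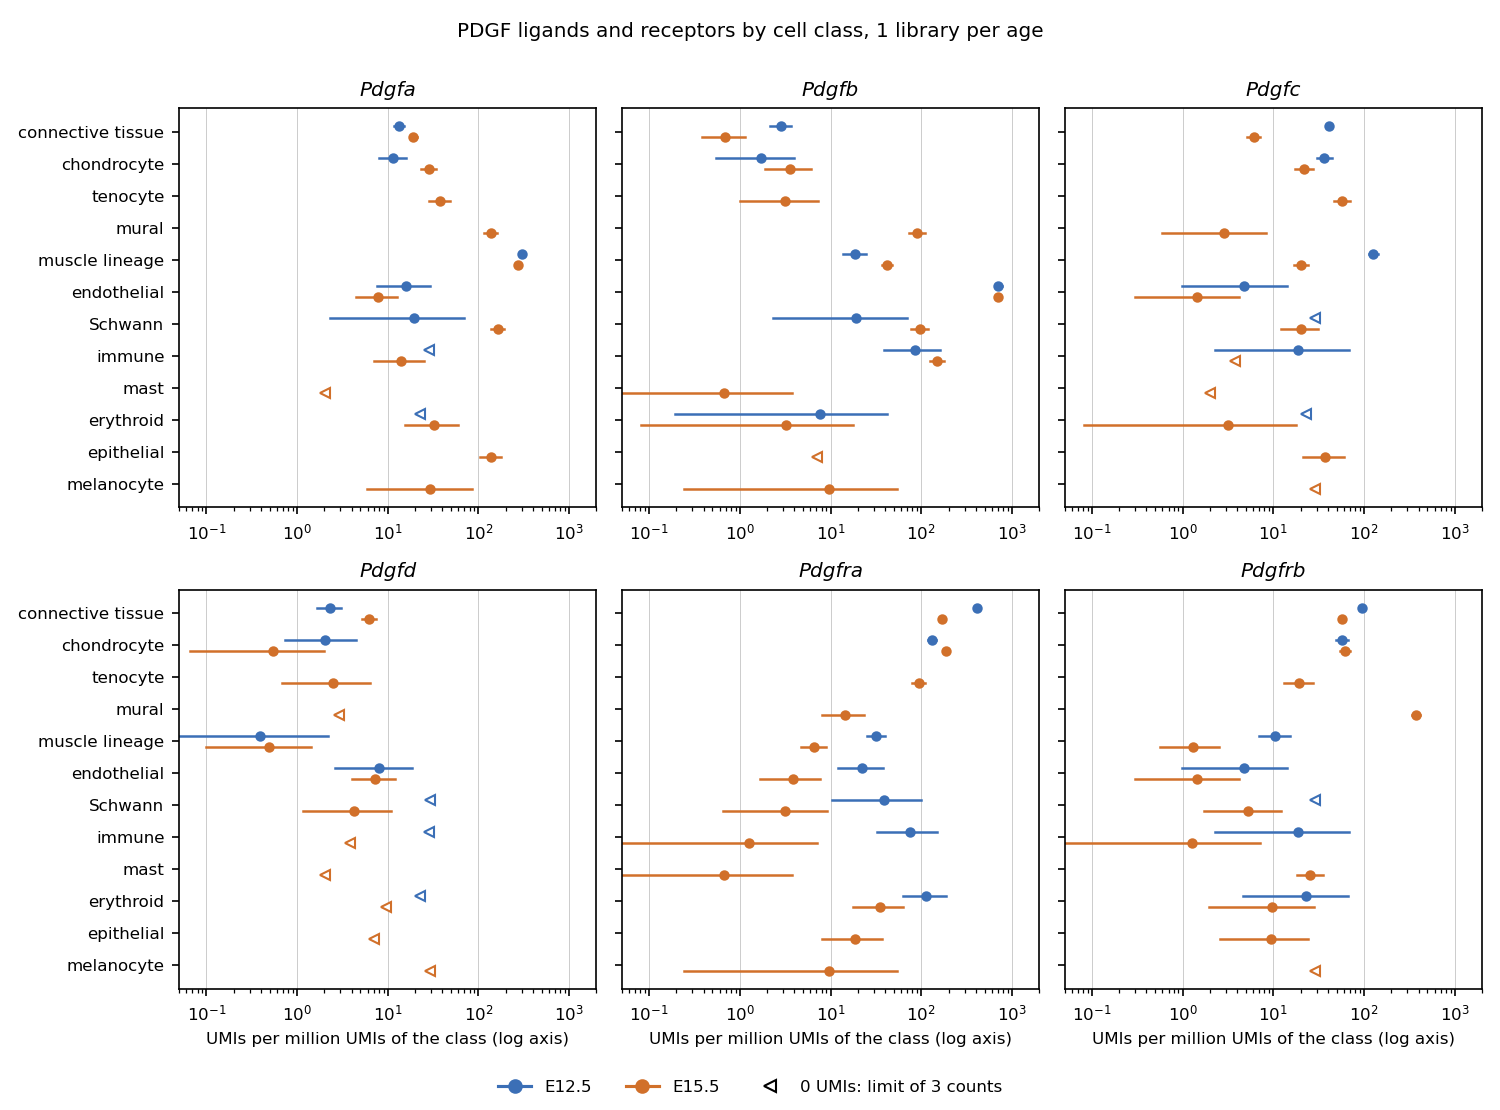
Level of each gene in each named cell class, in CPM of the class on a log axis, with 95% Poisson intervals as bars, E12.5 in blue and E15.5 in orange. Open triangles mark classes with 0 UMIs at the level that 3 counts would give. Pdgfa is highest in the muscle lineage, Pdgfb in endothelial cells and Pdgfrb in mural cells, which were named at E15.5 only.

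Within the muscle lineage the A chain differed more between clusters than between ages. At E12.5 the cluster led by Msc, Rbm24 and Pax7 had 355 CPM (316 to 396) and the one led by Msc, Pax7 and Vgll2 had 374 CPM (338 to 412). The cluster led by the embryonic myosin gene Myh3, where no Pax7 UMI was found, had 108 CPM (83.0 to 137). At E15.5 the clusters led by Msc, Pax7 and Kcne1l and by Pax7, Msc and Fgfr4 had 332 CPM and 319 CPM. The cluster led by the fusion gene Mymx and by Myog, a differentiation factor, had 118 CPM (96.4 to 143), and that led by Mylpf, Tnnc2 and Acta1 had 35.4 CPM (19.8 to 58.3, 15 UMIs in 17 cells). The intervals of the clusters with Pax7, the marker of muscle progenitors, did not overlap those of the differentiating clusters at either age. These are clusters of the same 2 libraries and not replicates.

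**Figure D2:**
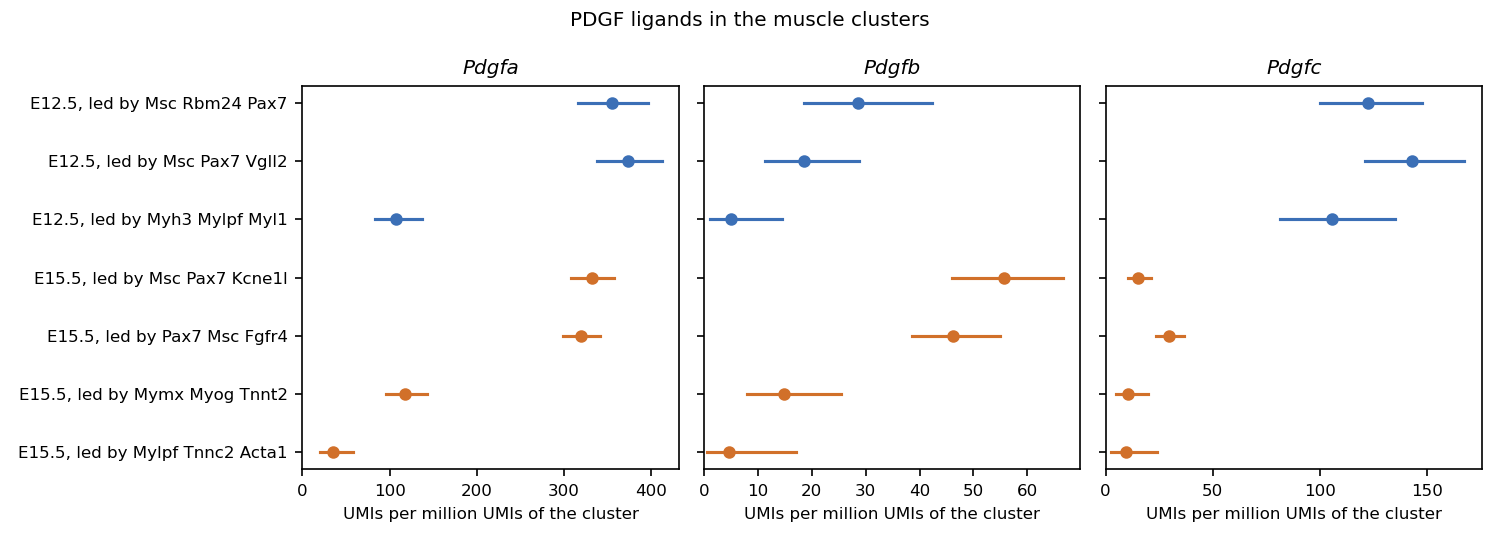
Levels of Pdgfa, Pdgfb and Pdgfc in each muscle cluster, in CPM of the cluster with 95% Poisson intervals, named by the 3 leading genes, E12.5 in blue and E15.5 in orange. Pdgfa runs from 319 to 374 CPM in the 4 clusters with Pax7 among their leading genes and from 35.4 to 118 CPM in the other 3, while Pdgfc separates the ages.

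Pdgfb, the B chain (chromosome 15, 79995874 to 80014977, minus strand), was concentrated in endothelial cells. Its endothelial level was 707 CPM (643 to 776, 442 UMIs in 132 cells) at E12.5 and 701 CPM (665 to 738, 1451 UMIs in 151 cells) at E15.5. Endothelial cells held 76.6% and then 70.5% of its UMIs, from 2.21% and 5.06% of all UMIs. They stood 145-fold and 44.7-fold over the rest of their libraries. After each cell was thinned to 2000 UMIs, 70.6% of endothelial cells had a Pdgfb UMI at E12.5 (61.5 to 78.6) and 64.1% at E15.5 (55.3 to 72.3). The share without thinning was 84.8% and 86.1%. The same thinned share was 0.554% in E12.5 connective tissue cells and 0.095% in those of E15.5, with median depths of 2291 and 9393 UMIs there against 3913 and 10823 UMIs in endothelial cells.

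Outside the endothelium Pdgfb was counted at lower levels in several classes. The 23 immune cells of E12.5 had 84.4 CPM (38.6 to 160, 9 UMIs), and the 56 of E15.5 had 151 CPM (125 to 180). Without thinning a Pdgfb UMI was seen in only 21.7% and 23.2% of them. The UMIs thus lay in a minority of the cells, and the intervals do not cover the spread between cells. The 2 immune clusters were not alike. S100a9, Pf4 and Apoe led at E12.5, with Ppbp and the mast marker Cpa3 further down, and Lyz2, C1qb and C1qc led at E15.5. The E12.5 cells also held 9472 CPM of the erythroid markers, so the 2 levels are not compared between the ages. Schwann cells had 96.0 CPM (77.3 to 118) and mural cells 89.8 CPM (72.6 to 110) at E15.5. The Schwann level was 13.7% of the endothelial level, above all 9 endothelial markers measured the same way, 6 of which were at 0 there. In mural cells Pdgfb was at 12.8% of the endothelial level and 1 of the 9 endothelial markers lay higher, at 20.2%. The part of endothelial RNA in the mural value was not tested, and that value ran from 50.4 CPM at resolution 0.5 to 143 CPM after thinning each cell to 2000 UMIs. Without thinning 37.1% of mural cells had a Pdgfb UMI. After thinning, Pdgfb and Pdgfrb were seen together in 4.29% of mural cells (0.893 to 12.0), an interval that held the product of the single shares, 8.29%. Muscle cells had 18.8 CPM (13.9 to 24.9) in the E12.5 library and 42.2 CPM (37.2 to 47.6) in the E15.5 library, which was 2.66% and 6.02% of the endothelial level and above all 9 endothelial markers at both ages. The 2 muscle clusters with Pax7 among their leading genes had 46.2 CPM and 55.6 CPM at E15.5, against 14.9 CPM in the Mymx-led cluster.

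Pdgfc, the C chain, had a wider set of sources, and its levels in muscle and connective tissue differed between the ages. At E12.5 muscle cells had 127 CPM (114 to 142), connective tissue 41.4 CPM (38.7 to 44.3) and chondrocytes 36.5 CPM (29.97 to 44.1). The connective tissue class held 62.9% of the UMIs and muscle 24.0%, from 72.7% and 9.02% of all UMIs. At E15.5 the highest level was in tenocytes, the tendon cells, at 57.3 CPM (46.2 to 70.3). Epithelial cells followed at 37.5 CPM (21.4 to 60.9, 16 UMIs), an interval that overlapped that of the tenocytes. Chondrocytes had 22.1 CPM, muscle 20.4 CPM and Schwann cells 20.04 CPM, and these 3 did not differ beyond their intervals. Connective tissue had 6.09 CPM (5.10 to 7.23), below all of these. The connective tissue share of the UMIs was 27.5% at E15.5, muscle held 26.2%, tenocytes 19.2% and chondrocytes 16.9%. With both libraries clustered together the connective tissue share at E12.5 was 38.8%. At E15.5 that share was 12.9% (3.34 CPM) with at least 1000 genes per cell and 36.7% after thinning, where muscle held 13.9%. No leading source is therefore named for that age. No tenocyte class was named at E12.5 in the main clustering, so a change in tenocytes is not given. An unnamed E12.5 cluster led by Dcc, Thbs4 and Tbx5 had a Pdgfc level within the E15.5 tenocyte interval.

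Pdgfd, the D chain (chromosome 9, 6168584 to 6378850, plus strand), was sparse, with 61 UMIs in the kept E12.5 cells and 167 in the kept E15.5 cells. Connective tissue held 77.0% of them at E12.5 (64.5 to 86.8) and 80.8% at E15.5 (74.0 to 86.5), at 2.28 CPM and 6.23 CPM. The class contributed 72.7% and 53.0% of all UMIs. Against the rest of the library Pdgfd there was 1.26-fold at E12.5, with a log2 interval of -0.55 to 1.31 that held 0, and 3.75-fold at E15.5. The E12.5 share of Pdgfd UMIs was 44.3% with both libraries clustered together, when 3076 of the E12.5 cells stayed unnamed. Endothelial cells had 8.0 CPM (2.60 to 18.7, 5 UMIs) and 7.24 CPM (4.05 to 11.9, 15 UMIs), or 4.2 CPM and 15.3 CPM over thinned cells. Within connective tissue at E15.5 the cluster led by Dpt, Apod and Cd55 had 12.6 CPM and that led by Fst and Sfrp4 had 10.8 CPM, while that led by Aldh1a3, Ngfr and Cntfr had 0.954 CPM. The gene Ddi1 lies within Pdgfd on the other strand and had 165 and 54 UMIs in the deposited cells. How strand was used in the counting was not given in the sources used here, so a mix of the 2 genes cannot be told apart.

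**Figure D3:**
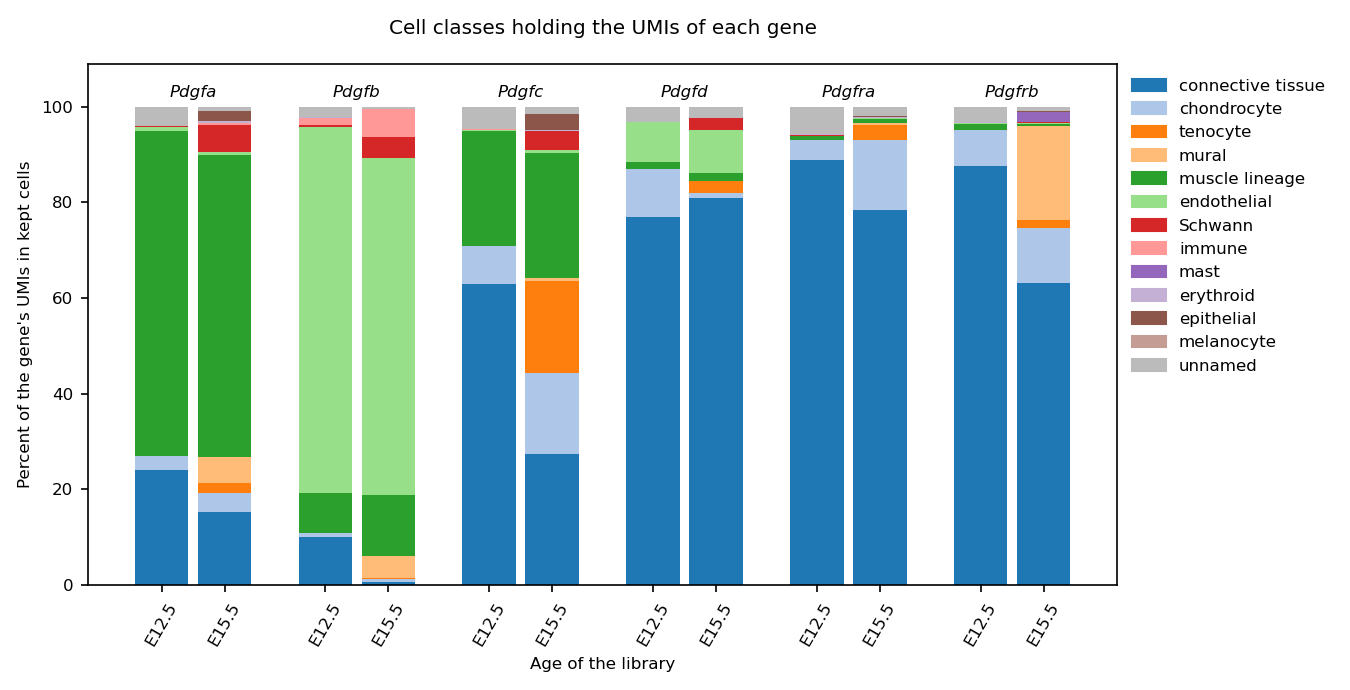
Percent of each gene's UMIs in kept cells that lay in each cell class, stacked, for each gene and age. Muscle holds 67.9% and 63.1% of Pdgfa and endothelial cells hold 76.6% and 70.5% of Pdgfb, while connective tissue holds most UMIs of both receptors at both ages.

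Pdgfra, the alpha receptor, was carried by the connective tissue and skeletal mesenchyme. Connective tissue cells had 416 CPM (407 to 425, 8554 UMIs) at E12.5 and held 88.9% of its UMIs. At E15.5 they had 171 CPM (165 to 176, 3698 UMIs) and held 78.5%. Chondrocytes had 132 CPM (119 to 145) at the earlier age and 186 CPM (172 to 200) at the later, and tenocytes 93.4 CPM (79.1 to 110). Muscle cells had 32.1 CPM at E12.5 and 6.63 CPM at E15.5, which was 7.72% and 3.88% of the connective tissue level. Of 10 connective tissue markers, 8 lay higher than that in muscle at E12.5, where their median was 8.87%, and 3 of 11 did at E15.5, where it was 3.33%. With no doublets removed the muscle values were 49.3 and 10.1 CPM. The part of connective tissue RNA in them was not tested. The erythroid cells at E12.5 had 114 CPM, 27.4% of the connective tissue level, where the connective tissue markers had a median of 16.9% of theirs and 1 of 10 lay higher than Pdgfra. The source of that value was not tested.

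Among the clusters of the connective tissue class Pdgfra ranged from 246 to 1049 CPM at E12.5 over 13 clusters and from 108 to 202 CPM at E15.5 over 8. The 2 ranges did not overlap. The highest value was in a cluster of 57 cells led by Fgf18, Slitrk6 and Nr2f1, followed by 700 CPM in the cluster led by Dcn, Kera and Grem1. At E15.5 the lowest was 108 CPM in the cluster led by Dpt, a gene of fibroblasts, with Apod and Cd55. Among chondrocyte clusters at E15.5 the one led by Mia, Matn4 and Sox9 had 222 CPM, the one led by Col9a3, Col2a1 and Nusap1 had 166 CPM and that led by the cartilage matrix gene Matn1 had 40.7 CPM.

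Pdgfrb, the beta receptor (chromosome 18, 61045150 to 61085061, plus strand), was highest in the mural cells named at E15.5, with 372 CPM (336 to 411, 389 UMIs in 70 cells). This was 9.39-fold over the rest of that library, and the mural cells held 19.8% of its UMIs from 2.56% of all UMIs. After thinning they had 243 CPM and held 8.99%. At clustering resolution 0.5 the class had 139 cells, with 263 CPM, 25.4% of the UMIs and 61.0 CPM of Pdgfra in place of 14.3. Connective tissue had 94.4 CPM (90.2 to 98.7) at the earlier age and 57.3 CPM (54.2 to 60.6) at the later. Chondrocytes had 57.5 CPM (49.2 to 66.8) and 61.8 CPM (54.0 to 70.4), and tenocytes 19.3 CPM (13.1 to 27.4). At E15.5 the connective tissue and chondrocyte intervals overlapped. In the connective tissue class Pdgfrb ranged from 38.2 to 154 CPM at E12.5 and from 39.1 to 204 CPM at E15.5. Its high clusters at E15.5 were those led by Twist2, Stmn2 and Irx1 with 204 CPM and by Aldh1a2, Cxcl13 and Il33 with 125 CPM, whereas the other 6 lay between 39.1 and 56.0 CPM. The chondrocyte cluster led by Mia, Matn4 and Sox9, highest of the 3 in Pdgfra, had 77.4 CPM.

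The 70 mast cells at E15.5, named from protease genes such as Cma1 and Cpa3, had 38 Pdgfrb UMIs, or 25.7 CPM (18.2 to 35.3). A UMI was seen in 34.3% of them at a median depth of 17801 UMIs. In immune cells, with a median of 13169 UMIs, the share was 1.79%, and in endothelial cells it was 1.32% at 10823 UMIs. Thinned to 2000 UMIs the mast cell share was 2.86% (0.348 to 9.94), near the level of 1 UMI. The mast cell level was 44.8% of that in connective tissue, and the 11 connective tissue markers lay between 0.233% and 1.36% there. Pdgfra was at 0.396%, from 1 UMI.

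**Figure D4:**
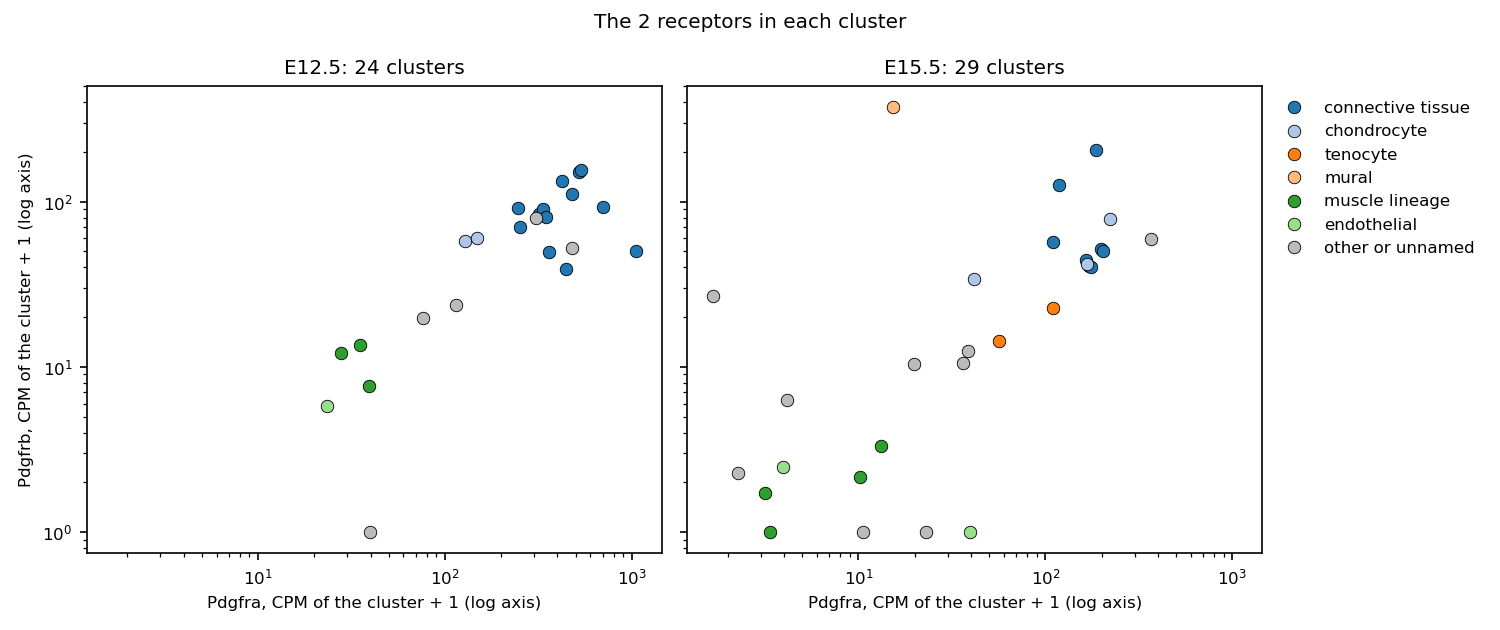
Level of Pdgfra against Pdgfrb in each cluster, 24 at E12.5 and 29 at E15.5, as CPM plus 1 on log axes, coloured by cell class. Connective tissue clusters sit high on both axes, and the mural cluster stands apart with 372 CPM of Pdgfrb and 14.3 CPM of Pdgfra.

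In connective tissue cells thinned to 2000 UMIs, 51.5% had a Pdgfra UMI at E12.5 (50.1 to 52.8) and 27.7% at E15.5 (25.8 to 29.7). Thinning left out 3079 of the 8309 E12.5 cells but 3 of the 2108 E15.5 cells. Without thinning the shares were 56.6% and 70.6%, so the order of the ages was the opposite. Thinned to 1000 UMIs they were 32.8% and 15.04%. The endothelial share, taken as background, was 2.52% at E12.5 and 0 of 131 cells at E15.5, which allows up to 2.29%. For Pdgfrb the connective tissue shares were 16.8% (15.8 to 17.8) and 10.9% (9.58 to 12.3), against 0.840% and 0.763% in endothelial cells. In the mural cells 41.4% (29.8 to 53.8) had a Pdgfrb UMI after thinning and 5.71% a Pdgfra UMI. Both receptors were seen in 9.16% of connective tissue cells at E12.5 (8.39 to 9.97), where the product of the 2 shares was 8.65%, and in 2.99% at E15.5 (2.31 to 3.81), where it was 3.01%.

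In connective tissue cells the interval of the co-detected share of a ligand with Pdgfra held the product of the single shares for both ligands compared. At E12.5 Pdgfa and Pdgfra were seen together in 1.26% of cells (0.977 to 1.60), against a product of 1.44%, and Pdgfc and Pdgfra in 3.71% (3.21 to 4.26), against 3.91%. In muscle cells at E12.5, 45.5% had a Pdgfa UMI after thinning (41.3 to 49.7) and 23.6% a Pdgfc UMI (20.2 to 27.4). The E15.5 shares were 43.8% for Pdgfa and 2.29% for Pdgfc. No Pdgfa or Pdgfc UMI was seen in the 39 thinned erythroid cells of E12.5, which allows up to 7.69% of cells with a UMI of each. At E15.5 a Pdgfa UMI was seen in 10.0% (1.23 to 31.7) of the 20 erythroid cells and a Pdgfc UMI in none, which allows up to 15%.

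Set against the rest of their own library, 2 of the 6 genes were at least 2-fold higher in connective tissue at E12.5, Pdgfra and Pdgfrb, where 5.62% of the genes tested were. In muscle 2 were, Pdgfa and Pdgfc, against 5.02% of genes, and in endothelial cells 2, Pdgfb and Pdgfd, against 9.91%. The endothelial Pdgfd value rests on 5 UMIs, and its log2 interval of 0.31 to 3.29 reached below the threshold. At E15.5 the 2 in connective tissue were Pdgfra and Pdgfd, against 9.11% of genes. Pdgfa was the 1 in muscle, against 5.18%, with Pdgfc just under the threshold at 1.998-fold. Pdgfb was the 1 in endothelial cells, against 9.17%. In mural cells Pdgfrb and Pdgfa were higher, by 9.39-fold and 2.13-fold, against 6.45% of genes.

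The 4 classes with at least 50 cells at each age allowed the ages to be set side by side. The largest connective tissue cluster was led by Calb2, Dkk2 and Arhgap20 at E12.5 and by Fst and Sfrp4 at E15.5, so the class was held by different clusters. A gene counted as higher or lower where the log2 ratio of its CPM, E15.5 over E12.5, reached 1 in size with at least 50 UMIs in the class. In connective tissue all 6 genes had enough UMIs, and 1 was higher, where 9.43% of genes were, and 3 were lower, where 21.9% were. The median gene of the class lay at -0.36, so ratios are also given relative to it. Pdgfra was lower at -1.28 (-1.34 to -1.23), or -0.93 relative to the median gene, which is short of the 2-fold threshold. Ribosomal protein transcripts were 12.9% of the deposited UMIs of the younger library and 20.1% of those of the older, and with them, haemoglobin and mitochondrial genes taken out of the total Pdgfra lay at -1.14. Pdgfc was lower at -2.76 (-3.04 to -2.50), or -2.41 relative to the median gene, and ran from -3.63 with at least 1000 genes per cell to -1.87 with mesenchymal clusters pooled. Pdgfrb lay at -0.72 (-0.82 to -0.62), and at -0.36 once the median gene was subtracted. Pdgfd was higher at 1.45 (0.96 to 1.96), with 0.99 in male cells alone, just short of the threshold. Pdgfa had 0.52 (0.30 to 0.75), and its sign reversed to -0.08 when cells needed at least 1000 genes. Pdgfb was lower at -2.03 (-2.95 to -1.19), but its levels there, 2.82 and 0.692 CPM, were 0.399% and 0.099% of the endothelial level, where endothelial markers had medians of 0.241% and 0.161%. With both libraries clustered together this Pdgfb ratio was -0.27, short of the threshold.

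In muscle cells 4 of the 6 genes had enough UMIs, and 1 was higher, where 3.71% of genes were, and 2 were lower, where 15.7% were. The largest muscle cluster was led by Msc, Rbm24 and Pax7 at E12.5 and by Msc, Pax7 and Kcne1l at E15.5. Pdgfc was lower at -2.64 (-2.95 to -2.34), or -3.27 over thinned cells, and in all 4 muscle clusters of E15.5 it lay between 9.43 and 29.5 CPM, against 106 to 143 CPM in the 3 clusters of E12.5. Pdgfb was higher at 1.17 (0.72 to 1.64), from 48 and 261 UMIs, with 0.87 in male cells alone. Pdgfa had -0.14 (-0.26 to -0.02), and relative to the median gene of the class, at -0.33, it had 0.19, so no direction is drawn. Pdgfra was lower at -2.28 (-2.85 to -1.72), or -2.87 in female cells alone, between the low levels given above beside the connective tissue markers.

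In chondrocytes 4 genes had enough UMIs, with 1 higher, where 8.27% of genes were, and none lower, where 11.7% were. The largest cluster was led by Matn1, Hapln1 and Acan at E12.5 and by Mia, Matn4 and Sox9 at E15.5. The latter held 319 of the 458 chondrocytes of E15.5 and had Gdf5 and Scrg1 among its leading genes. At E12.5 a cluster led by Gdf5 and Scrg1 (1080 cells) was in the connective tissue class instead. The chondrocyte ratios therefore set unlike clusters side by side. Pdgfa was higher at 1.30 (0.73 to 1.90), from 11.5 and 28.3 CPM. Pdgfra had 0.50 (0.32 to 0.68), which reversed to -1.83 when both libraries were clustered together and only 47 cells of E15.5 were named chondrocytes. In the Matn1-led cluster of E15.5 (44 cells) the Pdgfra level, given above, lay below that of the E12.5 class. Pdgfc had -0.73 (-1.16 to -0.30), which reversed to 0.06 at the higher clustering resolution and was -1.63 in male cells. In endothelial cells only Pdgfb had enough UMIs, and it was neither higher, where 5.41% of genes were, nor lower, where 9.87% were. Its log2 ratio was -0.01 (-0.17 to 0.14), and 0.20 once the median gene was subtracted. The endothelial cluster of E12.5 was led by Cdh5, Kdr and Pecam1 and the larger one of E15.5 by Fabp4, Cdh5 and Gpihbp1, while 28 of the 151 endothelial cells at E15.5 formed a shallow cluster with a median of 1401 UMIs.

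**Figure D5:**
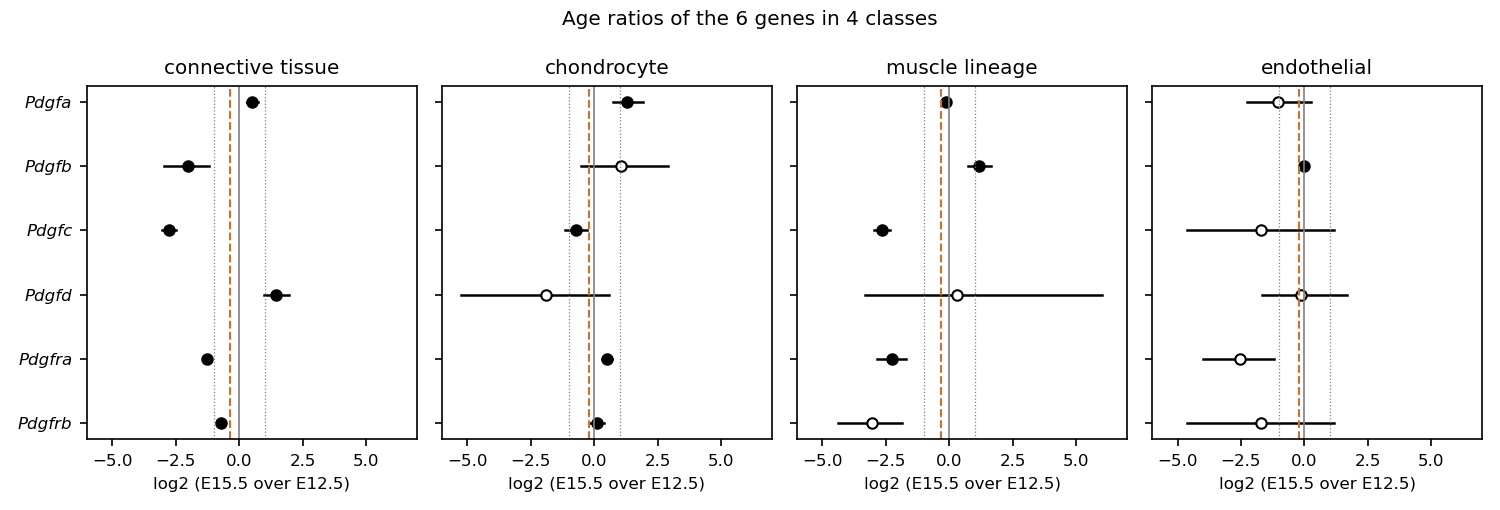
Log2 ratio of each gene's CPM, E15.5 over E12.5, in 4 classes with exact 95% intervals that cover counting error only. Filled points have at least 50 UMIs, dotted lines mark 2-fold, and the dashed line is the median gene of the class. In connective tissue Pdgfc at -2.76 and Pdgfra at -1.28 lie to the left of the median gene, and Pdgfd at 1.45 lies to the right.

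Other genes of the pathway were followed as 6 lists of 48 genes, all found in the files. Their counts are to be read against the shares of all genes past the threshold, which were 9.43% higher and 21.9% lower in connective tissue, 8.27% and 11.7% in chondrocytes, 3.71% and 15.7% in muscle, and 5.41% and 9.87% in endothelial cells. Of the 6 proteases that can activate PDGF precursors, 5 had enough UMIs in connective tissue and 1 was higher at E15.5. It was Plat, tissue plasminogen activator, which cleaves the C chain, at 9.04 and 48.2 CPM, a log2 ratio of 2.42. In chondrocytes 1 of 3 was lower, the proprotein convertase gene Pcsk6 at -2.21. In muscle and in endothelial cells neither list member with enough UMIs, 1 in each class, passed the threshold. The connective tissue median of the list was 0.60, against -0.36 over all genes.

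Among 6 extracellular binding partners and co-receptors, 3 were higher in connective tissue, where 9.43% of all genes were, and none lower, where 21.9% were, with a list median of 1.02 against -0.36. Sparc, a matrix protein that can bind PDGF, had 411 CPM and 2104 CPM, a log2 ratio of 2.36. Pdgfrl, the PDGF receptor-like gene, had 11.2 and 28.5 CPM, at 1.35. Nrp1, the neuropilin co-receptor, had 60.1 and 146 CPM, at 1.29. In chondrocytes 2 of 6 were higher, Sparc at 2.22 and Pdgfrl at 1.27, and 2 lower, Spon1 at -1.85 and Thbs1 at -1.66, where 8.27% and 11.7% of all genes were. In muscle 1 of 5 was lower, the endocytic receptor gene Lrp1 at -1.24, where 15.7% of all genes were, and in endothelial cells none of 2 passed.

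Most signalling genes downstream of the receptors did not reach the 2-fold threshold, and neither did most of all genes in each class. Of 16 adaptors and effectors, all 16 had enough UMIs in connective tissue and 1 was lower, the exchange factor gene Sos1 at -1.23, where 21.9% of all genes were lower. The list median was -0.42 there, -0.39 in chondrocytes and -0.67 in both muscle and endothelial cells, where the median genes lay at -0.36, -0.22, -0.33 and -0.22. In muscle 2 of 16 were lower, Pik3r1, the regulatory subunit of phosphoinositide 3-kinase, at -2.10 and Sos1 at -1.11, where 15.7% of all genes were. In chondrocytes Pik3r1 was the 1 of 16 that was higher, at 1.71. In endothelial cells Sos1 was the 1 of 14 that was lower, at -1.495. Of 5 receptor phosphatases and ubiquitin ligases, 1 was lower in connective tissue, Cbl at -1.10, and 1 of 4 in chondrocytes, Cblb at -1.27. None of 4 passed in muscle and none of 4 in endothelial cells.

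Of the 7 other class III receptor genes and their ligands, 3 had enough UMIs in connective tissue. Kitl, the ligand of the mast cell and melanocyte receptor Kit, had 9.23 CPM at E12.5 and 158 CPM at E15.5, a log2 ratio of 4.09. Kit was lower at -1.31, so 1 of the 3 was higher and 1 lower, where 9.43% and 21.9% of all genes were. In chondrocytes Kitl was the 1 of 2 that was higher, at 1.61, and none of 1 in muscle and of 2 in endothelial cells passed. In the VEGF branch of the superfamily 3 of 7 were higher in connective tissue, where 9.43% of all genes were, and the list median was 0.80. They were Vegfd at 3.10, from 3.50 and 30.1 CPM, Kdr at 1.85 and Flt1 at 1.63, the last 2 at under 10 CPM. Kdr and Flt1 encode endothelial receptors, and the 9 endothelial markers summed to 22.5 CPM in connective tissue at E12.5 and 49.7 CPM at E15.5, with none at 0. Their part in the Kdr and Flt1 values was not tested. Pgf was the 1 of 3 that was lower in muscle, at -1.01, and Flt4 the 1 of 5 that was lower in endothelial cells, at -1.35. None of 2 passed in chondrocytes.

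Over the 13 combinations of class and age with at least 50 cells, the genes most like each member were named by Pearson's r of log2(CPM + 10). The points share libraries and depth, so r is a description. For Pdgfra they were Pitx1 (0.99), Fam171b (0.98) and Dnm1 (0.98). For Pdgfrb they were Epb41l1 (0.95), Ptchd4 (0.93) and Map7d3 (0.93). For Pdgfa they were Cryab (0.93), Itgb3bp (0.91) and Inka2 (0.91). The closest to Pdgfb was Afap1l1 (0.94), followed by Cd151 (0.94) and Gmpr (0.93). The closest to Pdgfc was Nnat (0.96), then Grip1 (0.93) and Net1 (0.93), and to Pdgfd Hspa12b (0.90), Gap43 (0.90) and Rtl8b (0.89).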

How the data were processed

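The authors deposited raw UMI counts per gene and cell for each library, per the file headers and values. Reads were processed with Cell Ranger 4.0.0 on mm10, and Seurat 4.3.0 is listed too, per the submitters' processing notes. Cells with at least 500 genes and under 10% mitochondrial UMIs were kept, and the highest-scoring simulated-doublet neighbours (0.8% per 1000 deposited cells, 1270 and 190 cells) were removed. Each library was clustered on 2000 variable genes, 30 principal components and 15 neighbours with Leiden (leidenalg 0.10.2, resolution 1). The 6 genes, the pathway lists and sex-linked genes were left out of the variable genes. A cluster took a name from at least 3 markers at least 2-fold over the other clusters, with 1 among its 10 leading genes. Connective tissue was the exception: it took remaining clusters with at least 3 of its markers at least 2-fold over the pooled non-mesenchymal clusters and no more leading markers of another class than of its own. UMIs were summed per class. Intervals are exact Poisson, Clopper-Pearson and conditional binomial at 95%, and a count of 0 allows 3 counts. Python 3.11.15 and scipy 1.17.1 were used, and the computation of the age ratios was checked on simulated counts with known folds. The members and lists were chosen with earlier results of these data known. Named pathway genes are those past the fold in a class, up to 3 per list and class by size of the ratio. Genes most like a member needed at least 100 UMIs over both libraries. Alternatives covered clustering, filters, thinning, scaling and sex of the cells (male where a Y-linked gene but not Xist was counted, female where the reverse held).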

Additional observations from a re-analysis of the deposited data

Results flagged for a closer look

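Pdgfa, Pdgfb and Pdgfra had age ratios of opposite sign in different classes, each with a 95% interval that left out 0. The share of all genes for which this holds was not counted, so it is not read as particular to these genes. With 1 library per age these differences were not tested, and the intervals cover counting error only. Pdgfa had a log2 ratio of 0.52 in connective tissue and 1.30 in chondrocytes, and -0.14 in muscle. The muscle value turned positive relative to the median gene (0.19), so no direction is drawn from it. Pdgfb had 1.17 in muscle and -2.03 in connective tissue, where its levels were near those of endothelial markers and the ratio was -0.27 with both libraries clustered together. Pdgfra had 0.50 in chondrocytes, -1.28 in connective tissue and -2.28 in muscle, and the chondrocyte value was -1.83 with joint clustering. Pdgfrb had -0.72 in connective tissue and 0.10 in chondrocytes, but the latter's interval held 0. The clusters that made up these classes differed between the ages.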

How the results depend on the processing

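No paired analysis was possible because each age has 1 library. Over 14 alternatives the Pdgfra ratio in connective tissue kept its sign. It was -1.22 with both libraries clustered together, -1.34 in male cells, -1.14 without haemoglobin, ribosomal protein and mitochondrial genes, -0.93 relative to the median gene and -1.19 with mesenchymal clusters pooled, a choice made after seeing the data. Pdgfrb there was -0.92, -0.58 and -0.36 with joint clustering, without those genes and relative to the median gene. Pdgfc there was -2.23 with joint clustering, -3.63 with at least 1000 genes per cell, -2.39 in male cells, -2.41 relative to the median gene and -1.87 with mesenchymal clusters pooled. Pdgfa in connective tissue reversed to -0.080 with at least 1000 genes per cell. In muscle Pdgfa reversed to 0.038 without haemoglobin, ribosomal protein and mitochondrial genes and to 0.19 relative to the median gene. In chondrocytes Pdgfc reversed to 0.061 at resolution 2 and Pdgfra to -1.83 with joint clustering. Endothelial Pdgfb was 0.23 in male cells, 0.20 relative to the median gene and -0.21 as a mean over cells. The cause of these reversals was not tested. The muscle share of Pdgfa at E12.5 was 64.4% with no doublets removed and 77.0% in male cells, and at E15.5 60.9% with no doublets removed, 54.2% after thinning and 60.7% in male cells. The endothelial share of Pdgfb was 80.2% in female cells at E12.5, and 65.1% after thinning, 81.3% in male cells and 65.1% in female cells at E15.5. With a minimum of 20 UMIs in place of 50, the genes at least 2-fold higher numbered 1213 against 802 in chondrocytes and 631 against 347 in endothelial cells, and the latter's lower genes 1095 against 633. The depth of E12.5 cells, with a median of 2323 UMIs, limits Pdgfd most.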

Other observations

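Some clusters that could not be named carried the alpha receptor. At E12.5 the unnamed cluster led by Dcc, Thbs4 and Tbx5 (562 cells) had 477 CPM of Pdgfra and 52.6 CPM of Pdgfc. The tenocyte markers Thbs4 and Mkx were among its 10 leading genes. That led by Ctla2a, Krt15 and Krt5 (223 cells, median 1081 UMIs) had 306 CPM of Pdgfra. It had epithelial markers among its leading genes and 3 connective tissue markers at least 2-fold over the non-mesenchymal clusters. Which of its cells carried Pdgfra was not tested. At E15.5 the unnamed cluster led by the long non-coding RNA gene Gm26917 (66 cells, median 2466 UMIs) had 369 CPM of Pdgfra, above all 8 connective tissue clusters of that age, and 58.2 CPM of Pdgfrb.

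Within connective tissue at E15.5 Pdgfa and Pdgfc were both highest in the cluster led by Nefm, Sfrp2 and Ecrg4, with 57.6 CPM and 19.5 CPM, and lowest in that led by Aldh1a3, Ngfr and Cntfr, with 4.29 CPM and 0.477 CPM. At E12.5 Pdgfa was highest, at 57.8 CPM from 7 UMIs, in the small cluster led by Fgf18 that also had the highest Pdgfra.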
